A study of Mus musculus with 24 samples.

Results

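The genes described here are 10 targets of the glucocorticoid receptor: Fkbp5, Sgk1, Tsc22d3, Zbtb16, Cdkn1a, Pdk4, Sult1a1, Plin4, Errfi1 and Ddit4. They were taken by name, each matched to 1 Ensembl entry, and make up 10 of the 37621 gene entries in every count table. The study sequenced ribosomal RNA-depleted total RNA from brains of C57BL/6 mice, either wild type or carrying a knockout of Cdr1as, a circular RNA of neurons known for binding the microRNA miR-7 at many places. The tissue was the dissected cerebellum, cortex, hippocampus or olfactory bulb, with 3 knockout and 3 wild-type libraries per region, 24 in all. No treatment is named for any group. The labels do not give the age of the mice, whether a library pools animals, or whether libraries with the same replicate number come from the same mouse. Knockout was compared with wild type within each region, and the wild-type libraries were compared across regions.

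Glucocorticoids, corticosterone in mice, are adrenal steroids that enter cells freely and bind 2 related receptors, the glucocorticoid receptor (Nr3c1) and the mineralocorticoid receptor (Nr3c2). The bound receptor moves to the nucleus and binds DNA as a dimer at a palindrome of 2 half-sites, where it raises the transcription of many genes within hours. Hormone release follows the daily cycle and rises with stress, and the hippocampus is known for its high level of both receptors. The 10 genes fall into 4 roles. Fkbp5 encodes a co-chaperone of Hsp90 that lowers the receptor's affinity for hormone, a feedback brake. Tsc22d3 and Zbtb16 encode regulators of transcription, and Sgk1 encodes a kinase that acts on ion channels and transporters. Cdkn1a, Errfi1 and Ddit4 encode inhibitors of cyclin-dependent kinases, of the EGF receptor and of mTOR signalling, and respond to other stresses as well. Pdk4, Plin4 and Sult1a1 belong to metabolism: a kinase that shuts off pyruvate dehydrogenase, a coat protein of lipid droplets and a sulfotransferase of phenols.

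The libraries held 5175203 to 30459968 reads counted in genes. The 3 shallowest libraries were olfactory bulb knockout 2 (5175203 counts, 14393 genes detected), cerebellum knockout 1 (6500197 counts, 13741 genes) and olfactory bulb wild type 1 (7395560 counts, 16483 genes). Levels below are CPM, read counts scaled to a common library size, with TMM factors over all 24 libraries. Cdr1as lay at 364 to 4280 CPM in wild type and at 0 to 0.662 CPM in knockout libraries. Summed markers of each region reached at least 531 to 3490 CPM in that region's own libraries and at most 71.3 to 279 CPM elsewhere. All 10 members were counted well enough to be tested in every region, with a median of 131 (Sult1a1) to 1660 (Sgk1) counts per library.

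Promoter windows from 250 bases before to 50 after each annotated start were read from RefSeq (GRCm38.p6), which matched 9 of the 10 members with 18 windows; Zbtb16 was not in that table. They were searched on both strands for the receptor half-site (AGAACA, or TGTTCT on the other strand) and for the palindrome of both half-sites set 3 bases apart. The cyclic AMP response element TGACGTCA, a palindrome bound by CREB, was searched as well. The half-site stood in 5 windows of 3 members (Sgk1, Tsc22d3 and Sult1a1), against 19% of all 32851 windows in the table. The full palindrome stood in 1 Sgk1 window and in 0.00913% of all windows, and the cyclic AMP element in 1 Errfi1 window and in 1.79% of all. These 3 windows are shown because they hold different motifs and their genes varied together within groups, as described further on. Pairwise correlations of Sgk1, Tsc22d3 and Errfi1 were 0.60 to 0.87 without the 3 shallowest libraries, but 0.33 to 0.67 over all 24. Nothing is read from this about shared control. Capitals mark the motifs, each window is 300 bases long and reads from 5′ to 3′ on the gene's strand.
Sgk1, chr10:21993640-21993939, plus strand: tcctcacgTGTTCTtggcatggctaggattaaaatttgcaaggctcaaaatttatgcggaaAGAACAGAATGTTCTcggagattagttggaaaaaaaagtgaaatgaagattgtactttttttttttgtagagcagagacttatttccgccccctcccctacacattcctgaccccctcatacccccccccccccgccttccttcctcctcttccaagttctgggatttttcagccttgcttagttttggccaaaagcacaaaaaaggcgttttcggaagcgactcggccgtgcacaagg
Tsc22d3, chrX:140600473-140600772, minus strand: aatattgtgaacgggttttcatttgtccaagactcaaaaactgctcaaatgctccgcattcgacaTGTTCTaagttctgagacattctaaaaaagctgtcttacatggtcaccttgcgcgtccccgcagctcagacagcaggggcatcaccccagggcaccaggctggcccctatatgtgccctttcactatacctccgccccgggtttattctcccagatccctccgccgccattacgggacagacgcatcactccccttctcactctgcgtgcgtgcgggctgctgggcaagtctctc
Errfi1, chr4:150854820-150855119, plus strand: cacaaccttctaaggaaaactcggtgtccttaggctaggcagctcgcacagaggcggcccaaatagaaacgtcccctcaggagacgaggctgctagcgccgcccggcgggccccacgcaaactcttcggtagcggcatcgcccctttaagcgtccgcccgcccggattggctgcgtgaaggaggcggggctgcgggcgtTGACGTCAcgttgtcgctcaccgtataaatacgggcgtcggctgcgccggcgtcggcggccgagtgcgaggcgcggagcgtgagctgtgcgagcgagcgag
The Sgk1 window holds a further half-site near its 5′ end, at position -242 from the start, and Tsc22d3 holds a single half-site at position -185. A match describes the letters only and is no evidence that a factor binds there.

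In wild-type brain, 8 of the 10 members differed in level among the 4 regions, beside 59.3% of all genes tested (edgeR quasi-likelihood F-test over the 12 wild-type libraries, adjusted p under 0.05). The 2 that did not pass were Sult1a1 (adjusted p = 0.0788) and Ddit4 (adjusted p = 0.404). Tissue was sequenced in bulk, so fewer cells of a type and less RNA per cell cannot be told apart in any of these differences. The regions were not ordered alike for the different members. By mean CPM, hippocampus was the highest region for 7 members, olfactory bulb for Cdkn1a and Ddit4, and cerebellum for Tsc22d3. Olfactory bulb had the lowest mean for 5 members. For Sgk1, Tsc22d3, Pdk4, Sult1a1, Plin4, Errfi1 and Ddit4 the highest region did not differ from the next beyond their spread. The adjusted p of these edgeR contrasts were 0.387 to 0.949.

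Per kilobase of exon, which allows genes to be compared, mean wild-type levels over the regions ran from 2.05 CPM per kb for Plin4 and 2.26 for Pdk4 to 19.3 for Sgk1 and 30.2 for Tsc22d3. Zbtb16 (16.6), Ddit4 (16.7) and Errfi1 (11.7) lay between these, as did Cdkn1a (9.02), Fkbp5 (7.76) and Sult1a1 (6.4 CPM per kb). The 3 members of metabolism and the feedback brake Fkbp5 were the 4 least abundant per length.

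Fkbp5 rose from cerebellum to hippocampus. Its wild-type libraries lay at 15, 17.8 and 14.5 CPM in the cerebellum, 57.3, 57.6 and 54.4 in the cortex, 75.6, 91.3 and 75.5 in the hippocampus and 47.5, 55.3 and 47.3 in the olfactory bulb. No cerebellar library came near those of another region. Cerebellum minus hippocampus was -2.34 on the log2 scale (SE 0.14, edgeR adjusted p = 7.97e-09), a 5.06-fold difference, and lower than the cortex and the olfactory bulb too (log2 -1.84 and -1.69, adjusted p = 8.53e-08 and 2.01e-07). Cortex and olfactory bulb, neighbours in the order, did not differ beyond their spread (log2 0.15, SE 0.13, adjusted p = 0.384). The call between cortex and hippocampus (log2 -0.50, adjusted p = 0.0231) was lost without cortex 1 (0.0521), hippocampus 2 (0.115) or cortex 3 (0.0946), and in 1 fit of all 24 libraries (0.131).

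Zbtb16, a zinc finger repressor, followed the same order of regions. Wild-type values were 139, 176 and 161 CPM in the hippocampus, 119, 93.5 and 84.6 in the cortex, 60.4, 54.1 and 51.6 in the olfactory bulb and 47.2, 32.9 and 33.1 in the cerebellum. The 3 libraries of each region stood apart from those of the next region in the order. Cerebellum lay below hippocampus by a log2 difference of -2.05 (SE 0.17, adjusted p = 3.28e-07) and below cortex by -1.38 (adjusted p = 1.33e-05), and olfactory bulb below cortex by 1.77-fold (adjusted p = 0.00164). The smaller steps, cortex against hippocampus (adjusted p = 0.0192) and cerebellum against olfactory bulb (0.0174), did not pass when hippocampus 2 (0.0969), hippocampus 3 (0.0578) or cortex 3 (0.109) was left out of the first, or cerebellum 2 (0.0894), cerebellum 3 (0.089) or olfactory bulb 1 (0.0587) out of the second.

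Cdkn1a, the inhibitor of cyclin-dependent kinases, was lowest in the hippocampus, where Fkbp5 and Zbtb16 were highest, and highest in the olfactory bulb. Wild-type libraries held 57.2, 44.6 and 51.2 CPM in the olfactory bulb, against 7.14, 5.96 and 8.50 in the hippocampus. Cortex (31.1, 13.2 and 20.8 CPM) and cerebellum (20.5, 16.1 and 18 CPM) lay between and overlapped. Hippocampus was 7.23-fold below the olfactory bulb (log2 -2.85, SE 0.26, adjusted p = 1.10e-06), and 5 of the 6 pairs of regions passed. The remaining pair, cerebellum and cortex, differed by -0.26 (SE 0.24, adjusted p = 0.401), and by -0.51 with an adjusted p of 0.0447 without cortex 2, but 0.09 (adjusted p = 0.776) without cortex 1.

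Sgk1, Tsc22d3, Pdk4 and Plin4 were lowest in the olfactory bulb. Sgk1 lay there at 29.7, 32.9 and 52.8 CPM in wild type, below every wild-type library of the other regions (64.4 to 132 CPM). Its difference from the hippocampus was 2.55-fold (log2 1.35, SE 0.28, adjusted p = 0.00219), and cerebellum, cortex and hippocampus did not differ from one another beyond their spread. Tsc22d3 was below them too (hippocampus minus olfactory bulb 0.97, SE 0.30, adjusted p = 0.0229), but its test over all 4 regions (adjusted p = 0.0318) did not pass without olfactory bulb 1 (0.0612), 2 (0.158) or 3 (0.0833), or with no filter on low counts (0.158), and its difference from the hippocampus did not pass without hippocampus 1 (0.146) or olfactory bulb 2 (0.098). Pdk4 in the hippocampus (11.9, 8.23 and 11.3 CPM) was 2.05-fold above the olfactory bulb (7.15, 4.09 and 4.05 CPM; log2 1.04, SE 0.27, adjusted p = 0.00807). Plin4, at 11.3, 24.8 and 17.6 CPM in the hippocampus against 4.26, 6.86 and 4.44 in the olfactory bulb, was 3.29-fold higher (log2 1.72, SE 0.43, adjusted p = 0.00686). The Plin4 test over the 4 regions (adjusted p = 0.0218) was lost without hippocampus 2 (0.0519), olfactory bulb 1 (0.0806) or olfactory bulb 3 (0.0795), and with no filter on low counts (0.0663).

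Errfi1 and Ddit4 varied least. Errfi1 ran from a mean of 30.4 ± 3.57 CPM (SD, n = 3) in the olfactory bulb to 46.2 ± 8.02 in the hippocampus, and only this pair of regions passed (log2 0.57, SE 0.17, adjusted p = 0.0175). That call ended without hippocampus 1 (0.0775) or olfactory bulb 2 (0.0842), and the test over the 4 regions (adjusted p = 0.0284) also ended without either of these (0.0756 and 0.0831), without hippocampus 3 (0.0638) or without cerebellum 3 (0.05). Other Errfi1 pairs were gained. Cerebellum against olfactory bulb passed without cerebellum 2 (0.0459) or cortex 2 (0.0293), and with the replicate number as a block (0.00793). With that block, cerebellum against cortex (0.0291) and cortex against hippocampus (0.0147) passed as well. Ddit4 means lay between 22.6 ± 9.27 CPM in the cortex and 32.8 ± 7.32 in the olfactory bulb, and none of its 6 pairs passed (adjusted p = 0.181 to 0.895). Within each replicate number, however, the cortex library of Ddit4 was the lowest of the 4 regions. With the replicate number as a block in the edgeR fit, Ddit4 passed over regions (adjusted p = 0.00949). Cortex was then below cerebellum (0.015), hippocampus (0.0288) and olfactory bulb (0.00364). The labels do not say that a number marks an animal. Sult1a1 was 5.85 ± 1.79 CPM in the cerebellum and 10.1 to 10.9 CPM on average in the other regions. Cerebellum against hippocampus passed for Sult1a1 (log2 -0.89, adjusted p = 0.035), as did cerebellum against olfactory bulb (-0.86, adjusted p = 0.0478). Both were lost without any of several single libraries, for instance cerebellum 1 (adjusted p = 0.139 and 0.183), hippocampus 2 (0.0838 and 0.0622) or cerebellum 3 (0.0829 and 0.108). Its test over the 4 regions passed without olfactory bulb 1, 1 of the 3 shallow libraries (adjusted p = 0.0116). It also passed with the replicate block (0.0124), with DESeq2 (0.0452) and with no filter on low counts (0.0477).

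Over the 6 pairs of regions, the members passed in 2 of 10 cases for cerebellum against cortex (46.7% of all genes tested passed), 5 for cerebellum against hippocampus (42.1%) and 7 for cerebellum against olfactory bulb (36.6%). For cortex against hippocampus 3 of 10 passed (9.77% of all genes), for cortex against olfactory bulb 5 (38.3%) and for hippocampus against olfactory bulb 8 (33.8%). The members' share thus lay above that of all genes for every pair that holds hippocampus or olfactory bulb, and below it for cerebellum against cortex; this is a description of 10 chosen genes with no test.

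**Figure D1:**
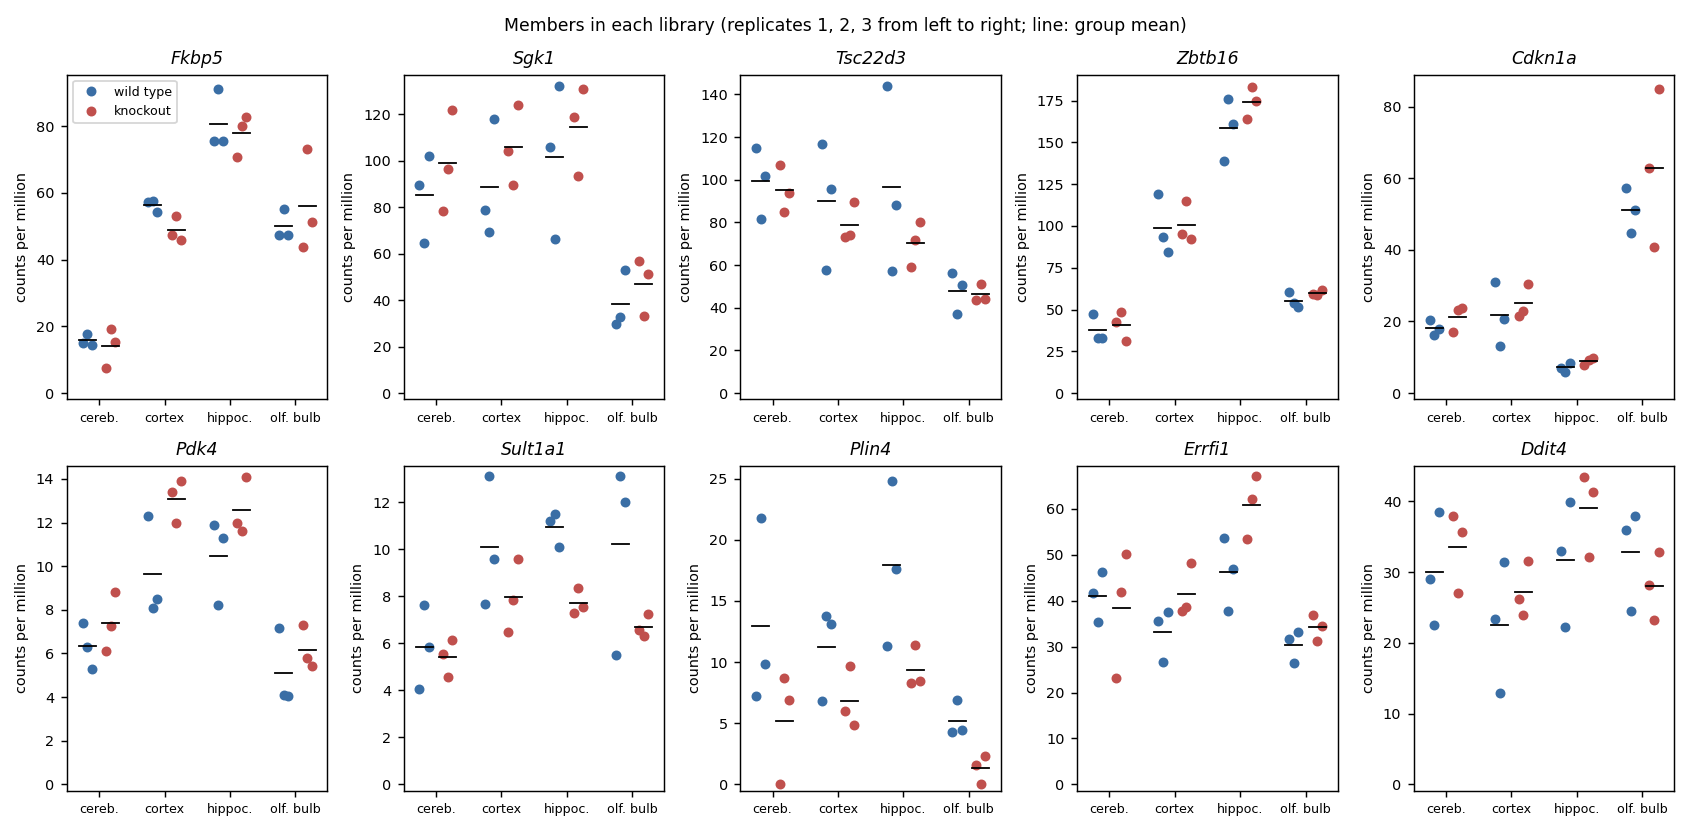
CPM of the 10 members (y axis, linear, 1 panel per gene with its own scale) in each of the 24 libraries by region (x axis), wild type in blue and knockout in red, with replicates 1, 2 and 3 from left to right and a line at the group mean. Fkbp5 and Zbtb16 are highest in the hippocampus, Cdkn1a is highest in the olfactory bulb, and Plin4 is at 0 in 1 cerebellum and 1 olfactory bulb knockout library.

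The 2 receptors were read the same way. Wild-type Nr3c2, the high-affinity receptor, lay at 275, 295 and 249 CPM in the hippocampus and at a mean of 41.3 ± 2.03 (cerebellum), 60.3 ± 2.40 (cortex) and 80 ± 8.67 CPM (olfactory bulb). Nr3c1 had another order, with 164 ± 20 CPM in the cerebellum, 159 ± 8.04 in the cortex, 121 ± 16.7 in the hippocampus and 71.4 ± 3.75 in the olfactory bulb (SD, n = 3 each). The cerebellum, with the least Fkbp5 and Zbtb16, had the lowest Nr3c2 and the highest mean Nr3c1, though its Nr3c1 libraries overlapped those of the cortex. Other values were ordered differently. The olfactory bulb had more Nr3c2 than the cortex but less Zbtb16 (means of 55.4 and 98.9 CPM). Mean Tsc22d3 was highest in the cerebellum, but did not differ there from the hippocampus beyond its spread (log2 0.07, edgeR adjusted p = 0.869). Hsd11b1, which regenerates active hormone inside cells, had wild-type means of 26.9 ± 2.80 CPM in the cerebellum, 21.9 ± 9.47 in the hippocampus, 10.1 ± 1.25 in the cortex and 1.72 ± 0.446 in the olfactory bulb. Of the 13 tested genes of receptor and hormone supply 9 differed among regions, and of 30 other glucocorticoid targets 20 did, shares near the 59.3% of all genes.

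Between knockout and wild type, no member passed the adjusted threshold in any region, for the mean over regions or in the test of whether the knockout effect differs between regions. The genes passing in all were 1 of 15536 in the cerebellum (0.00644%), 1 of 15777 in the cortex (0.00634%), 1 of 16119 in the hippocampus (0.0062%) and 4 of 15831 in the olfactory bulb (0.0253%), with Cdr1as among them each time. For the mean over regions 0.0114% of 17600 genes passed and for the difference between regions 0.00568%. At an unadjusted p under 0.05, the members counted 0 of 10 in the cerebellum (1.89% of all genes), 0 in the cortex (5.64%), 3 in the hippocampus (4.01%) and 0 in the olfactory bulb (2.43%). They counted 1 of 10 for the mean over regions (5.06%) and 0 for the difference between regions (1.48%). Knockout and wild-type libraries did not overlap for 0 members in the cerebellum (11.3% of all genes), 2 in the cortex (13.4%), 1 in the hippocampus (9.47%) and 1 in the olfactory bulb (11.6%). The median log2 fold change of the members was 0.03, 0.09, 0.16 and 0.12 in cerebellum, cortex, hippocampus and olfactory bulb, beside -0.04, 0.00, -0.02 and -0.01 over all genes.

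Plin4, the lipid droplet coat protein, had the largest difference of the 10 in each region. In the hippocampus its knockout libraries held 8.27, 11.4 and 8.43 CPM and its wild-type libraries 11.3, 24.8 and 17.6. The highest knockout library lay just above the lowest wild-type library, so the groups overlapped there. Knockout over wild type was -0.92 on the log2 scale (SE 0.27, unadjusted p = 0.00825, edgeR adjusted p = 0.953), and -0.61 without wild type 2. In the cortex the values were 5.99, 9.69 and 4.83 CPM in knockout and 6.85, 13.8 and 13.1 in wild type (log2 -0.72, SE 0.35, adjusted p = 0.858), and the estimate was -1.10 without knockout 2.

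In the olfactory bulb Plin4 lay at 1.61, 0 and 2.36 CPM in knockout and at 4.26, 6.86 and 4.44 in wild type, without overlap. In the cerebellum the knockout values were 0, 8.71 and 6.93 CPM against 7.19, 21.8 and 9.82. The zeros are the 2 libraries with the fewest counts, where 3 counts, the limit a count of 0 allows, would be 0.58 and 0.462 CPM without scaling. With these libraries the log2 fold change was -1.89 (SE 0.88) in the olfactory bulb and -1.24 (SE 0.92) in the cerebellum, and without them it was -1.41 (SE 0.38, unadjusted p = 0.00568, adjusted p = 0.977) and -0.70 (SE 0.58, adjusted p = 0.999). Without wild type 2, the highest library, the cerebellar estimate was -0.65. The other knockout libraries had 31 and 44 counts in the olfactory bulb and 150 and 117 in the cerebellum.

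For the mean over regions the Plin4 difference was -1.72 (limma, SE 0.38, unadjusted p = 0.000965, adjusted p = 0.629). With the replicate number as a block, where same-numbered libraries count as pairs, the adjusted p was 0.0771, and 0.0852% of all genes passed. Because 2 zeros enter these means, a fit of the 21 deeper libraries, with region as a covariate, was added after the values had been seen. It gave -0.89 (edgeR, SE 0.21, adjusted p = 0.0438), and 0.97% of all genes passed. Pdk4 was the only other member past the threshold in that fit (0.41, SE 0.10, adjusted p = 0.0425). The same model over all 24 libraries gave -1.12 (adjusted p = 0.169) for Plin4 and 0.31 (adjusted p = 0.429) for Pdk4, with 0.443% of all genes passing. Both of these fits count the 4 regions of a replicate number as independent samples, which the labels do not establish.

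Pdk4, the brake on pyruvate use, lay at 13.4, 12 and 13.9 CPM in knockout cortex and at 12.3, 8.07 and 8.51 in wild type. The overlap came from wild type 1 alone. On the log2 scale the difference was 0.42 (SE 0.19, adjusted p = 0.858), and in the other regions it was 0.23, 0.26 and 0.28 for cerebellum, hippocampus and olfactory bulb (SE 0.17 to 0.41). The estimate was above 0 in all 4 regions, with adjusted p of 0.858 or more in each.

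Sult1a1, the sulfotransferase, was lower in every knockout hippocampus library (7.28, 8.34 and 7.55 CPM) than in any wild-type one (11.2, 11.5 and 10.1 CPM). The log2 fold change of -0.49 (SE 0.15, unadjusted p = 0.00896, adjusted p = 0.953) corresponds to a level 28.8% lower on the fitted scale. Olfactory bulb values were 6.56, 6.33 and 7.24 CPM in knockout against 5.52, 13.1 and 12 in wild type, where the lowest was the shallow wild type 1. The fold change there was -0.63 (SE 0.36, adjusted p = 0.992), and -0.91 (SE 0.25, adjusted p = 0.998) without that library. In the cortex (-0.36, SE 0.25, and -0.13 without wild type 2) and the cerebellum (-0.10, SE 0.34, and 0.16 without wild type 2) the groups overlapped.

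Errfi1, the EGF receptor inhibitor, lay at 53.5, 62.1 and 67.2 CPM in knockout hippocampus against 53.7, 37.8 and 47 in wild type. The only overlap was between knockout 1 and wild type 1. The difference on the log2 scale was 0.41 (SE 0.14, unadjusted p = 0.0182, adjusted p = 0.953). In the cortex the 3 knockout libraries (37.8, 38.7 and 48.2 CPM) were above the 3 wild-type ones (35.6, 26.7 and 37.6 CPM), by 0.30 (SE 0.16, adjusted p = 0.858), and by 0.17 without wild type 2 or 0.18 without knockout 3. Estimates were 0.16 in the olfactory bulb and -0.08 in the cerebellum, and the latter was 0.16 without the shallow knockout 1, whose 23.2 CPM was far under the 42 and 50.1 of the other cerebellar knockout libraries.

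Fkbp5, a common readout of the receptor, differed little. In the cortex its knockout libraries (47.5, 53 and 45.9 CPM) lay just below the wild-type ones (57.3, 57.6 and 54.4 CPM), a log2 fold change of -0.23 (SE 0.12, adjusted p = 0.858, and 0.401 with the block). In the hippocampus, where it was highest, it was 70.8, 80 and 82.8 CPM in knockout and 75.6, 91.3 and 75.5 in wild type (-0.05, SE 0.12, and 0.06 without wild type 2). The olfactory bulb estimate of 0.14 (SE 0.19) became -0.09 (SE 0.13) without the shallow knockout 2, and the cerebellar estimate of -0.14 (SE 0.31) became 0.14 (SE 0.14) without the shallow knockout 1. Tsc22d3, which encodes a leucine zipper protein that dampens inflammation, had estimates from -0.45 (SE 0.29, hippocampus) to -0.05 (SE 0.15, cerebellum), with adjusted p of 0.902 or more. The hippocampal value rested on wild type 1, at -0.05 without that library and -0.71 without wild type 2, and the cortical estimate of -0.21 became 0.03 without wild type 1. Its estimates in cerebellum and olfactory bulb turned to 0.06 and 0.07 without wild type 1.

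Sgk1, Cdkn1a and Zbtb16 had estimates above 0 in all 4 regions, but for each gene leaving out 1 library turned the sign in at least 1 region. For Sgk1 they were 0.23, 0.23, 0.18 and 0.28 in cerebellum, cortex, hippocampus and olfactory bulb (SE 0.20 to 0.25), its groups overlapped in each region, and the hippocampal estimate was -0.04 without wild type 2. Cdkn1a had 0.24, 0.18, 0.33 and 0.31 in the same order (SE 0.18 to 0.29). Without the shallow library of the region it was 0.36 (SE 0.12, adjusted p = 0.866) in the cerebellum and 0.53 (SE 0.16, adjusted p = 0.977) in the olfactory bulb with knockout 2 left out. The cortical estimate of Cdkn1a was -0.06 without wild type 2 and 0.53 without wild type 1, and that of the olfactory bulb was 0.02 without knockout 3. For Zbtb16 the estimates were 0.12, 0.01, 0.14 and 0.11 (SE 0.11 to 0.21), and for Ddit4 they were 0.16, 0.24, 0.30 and -0.22 (SE 0.20 to 0.28). The Zbtb16 estimate turned to -0.03 in the cerebellum without knockout 2, and in the cortex to -0.13, -0.02 and -0.09 without knockout 2, wild type 2 and wild type 3. Ddit4 in the cortex turned to -0.03 without wild type 2. All adjusted p of these 4 genes were 0.91 or more except that of Sgk1 in the cortex (0.881).

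**Figure D2:**
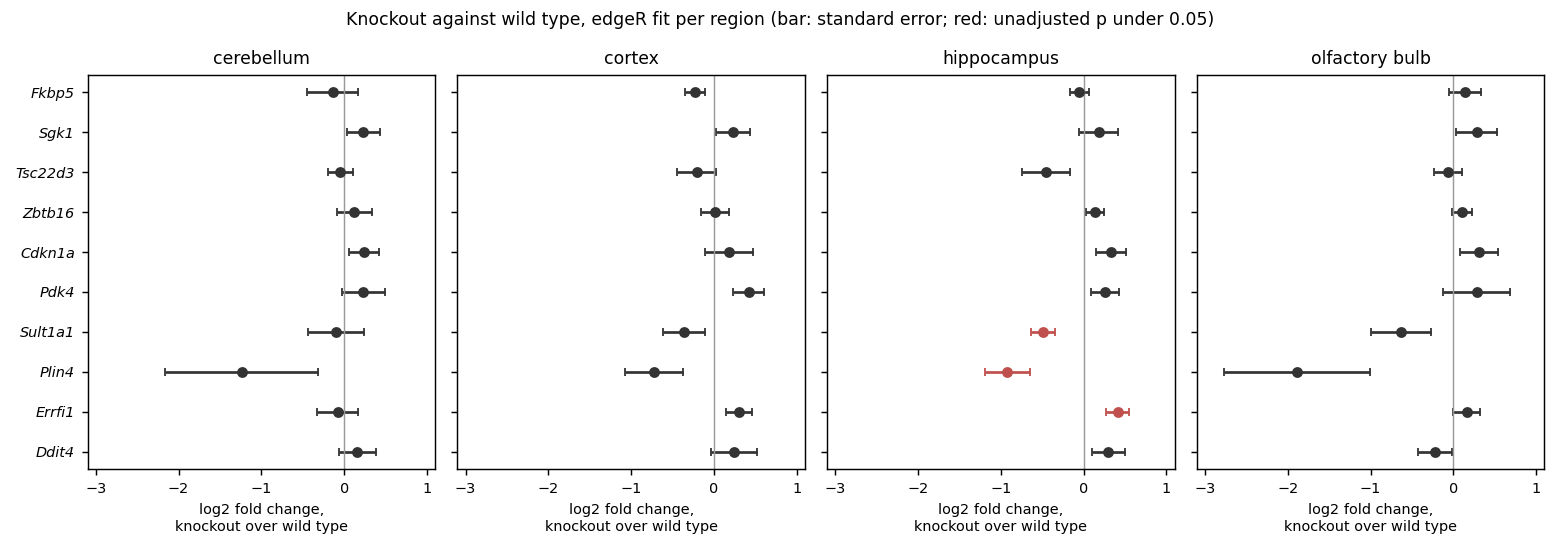
Log2 fold change of knockout over wild type for the 10 members (rows) in 4 regions (panels), with bars of 1 standard error; red marks an unadjusted p under 0.05. Plin4 is below 0 and has the lowest estimate in each panel, from -0.72 in the cortex to -1.89 in the olfactory bulb, and the red points, all in the hippocampus, are Plin4, Sult1a1 and Errfi1.

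Markers of other cell types and regions differed by genotype in several comparisons, though no marker passed the adjusted threshold. Over all genes, 43.1%, 50.1%, 46.2% and 47.8% were above 0 in cerebellum, cortex, hippocampus and olfactory bulb. In the hippocampus, the 8 choroid plexus markers summed to 45.6, 47.2 and 39.2 CPM in knockout and to 2400, 38.8 and 1940 in wild type; all 8 were lower in knockout, and none was at 0. For the same wild-type libraries 1, 2 and 3, Plin4 was 11.3, 24.8 and 17.6 CPM, Sult1a1 11.2, 11.5 and 10.1, Errfi1 53.7, 37.8 and 47 and Tsc22d3 144, 57.4 and 88.4. Tsc22d3 was highest and Plin4 lowest in wild type 1, the library with the most choroid plexus RNA. Wild type 1 held these places in 4 of 4 regions. In the cerebellum, choroid plexus sums of wild type 1, 2 and 3 were 1110, 1110 and 24.2 CPM. Tsc22d3 was there at 115, 81.5 and 102 CPM and Plin4 at 7.19, 21.8 and 9.82. The part of choroid plexus RNA in these values was not tested. The 8 endothelial markers summed to 236 to 256 CPM in knockout hippocampus and to 259 to 287 in wild type, with 7 of 8 lower. The 8 meningeal markers, all lower, summed to 110, 232 and 110 CPM in knockout and to 186, 177 and 313 in wild type, and none of either list was at 0.

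In the cortex, where Fkbp5 and Errfi1 did not overlap between genotypes, the 6 olfactory bulb markers summed to 22.4, 22.4 and 24.8 CPM in knockout and to 64.6, 33 and 41.2 in wild type. All 5 that could be tested were lower (median -1.15, each with an unadjusted p under 0.05), and none was at 0. The 6 cerebellum markers summed to 25.8 to 31.3 CPM in knockout cortex and to 37.2 to 62.6 in wild type, and the 2 tested were lower. Of the 8 oligodendrocyte markers 7 were lower there (median -0.18), with overlapping sums of 3210 to 3760 CPM in knockout and 3380 to 4420 in wild type. In the cerebellum 7 of 8 choroid plexus markers were lower (median -0.88), with sums of 253, 634 and 355 CPM in knockout and 1110, 1110 and 24.2 in wild type, and the endothelial sums were 234 to 244 against 251 to 255 CPM with 5 of 8 lower. The 6 olfactory bulb markers were the other way in the cerebellum, at 57.9 to 71.3 CPM in knockout against 22.8 to 33.4 in wild type, with Tbx21, Sp8 and Trh at 0 in knockout. Blood markers there summed to 51.8 to 86.3 CPM in knockout against 37.3 to 48 in wild type, with 3 of 4 above 0. In the olfactory bulb 7 of 8 endothelial markers were lower (236 to 285 against 281 to 292 CPM), and choroid plexus markers summed to 6.15 to 9.21 CPM in knockout against 9.5 to 21.3. The part of each of these tissues in the differences of the members, and in those of Per1, Dusp1 and the early response genes described next, was not tested.

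The other genes of the pathway were counted from fixed lists. Of the 13 genes of receptor and hormone supply, none passed the adjusted threshold, and in the 4 regions 4, 3, 5 and 8 were above 0 with medians of -0.02, -0.07, -0.04 and 0.04. Nr3c2 lay at 357, 320 and 316 CPM in knockout hippocampus against 275, 295 and 249 in wild type, without overlap (log2 0.28, SE 0.10, unadjusted p = 0.0202, adjusted p = 0.953). Nr3c1 was higher without overlap in the olfactory bulb, at 87.4, 85 and 77.5 CPM against 72.2, 67.3 and 74.7 (0.21, SE 0.11, adjusted p = 0.992). Hsd11b1 estimates were -0.06 (SE 0.14), -0.09 (SE 0.20) and -0.04 (SE 0.25) in cerebellum, cortex and hippocampus. In the olfactory bulb Hsd11b1 lay at 2.39, 0 and 2.57 CPM in knockout against 2.13, 1.79 and 1.25 in wild type. Its estimate of -0.01 there had an SE of 1.09 and ran from -0.60 to 0.52 under the alternatives, so it says little. The difference in Nr3c2 between regions was not past the threshold (interaction test, unadjusted p = 0.196, adjusted p = 1).

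Among 30 other glucocorticoid targets, 13, 16, 12 and 16 were above 0 in cerebellum, cortex, hippocampus and olfactory bulb, with medians of -0.06, 0.08, -0.09 and 0.02, and none passed the adjusted threshold. In cortex, hippocampus and olfactory bulb the smallest p was that of Per1, a clock gene that the receptor also induces. It lay at 215, 179 and 210 CPM in knockout cortex against 109, 92.6 and 107 in wild type, and at 172, 224 and 226 against 78.7, 101 and 140 in the olfactory bulb. Knockout libraries were above all wild-type ones in each of the 4 regions. The log2 fold changes were 0.52, 0.94, 0.55 and 0.95 (SE 0.11 to 0.20; adjusted p = 0.949, 0.217, 0.953 and 0.974). With DESeq2 Per1 passed in cortex (adjusted p = 1.76e-09) and olfactory bulb (0.00262), and with sample quality weights in cerebellum (0.0399) and cortex (0.00422). It also passed in 1 fit of 24 libraries in cortex (0.0371) and olfactory bulb (0.042), and in the cortex with no filter on low counts (0.0392) or with the no-feature share as a covariate (0.000217).

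In the cortex same-numbered libraries were taken as pairs, on weak ground for number 3. The fit with the replicate block there gave Per1 an adjusted p of 0.000909, and 0.19% of all genes passed. Dusp1, a phosphatase of MAP kinases, had an adjusted p of 0.0054 in it. For the mean over regions Per1 was 0.75 (limma, SE 0.12, adjusted p = 0.122, and 0.00399 with the block). Dusp1 was 67.6, 74.7 and 71.8 CPM in knockout cerebellum against 14.8, 31.7 and 39.5 in wild type (1.33, SE 0.32, adjusted p = 0.949), and 1.19 (SE 0.28, adjusted p = 0.833) in the cortex. DESeq2 called Dusp1 in both (adjusted p = 0.0252 and 0.0124). Arl4d, a small GTPase, differed by 0.82 (SE 0.18, adjusted p = 0.758) in the cortex and by 1.13 (SE 0.31, adjusted p = 0.992) in the olfactory bulb. With the no-feature share as a covariate, its cortical difference passed (adjusted p = 0.0228). Per1 and Dusp1 are also known as genes induced by neuronal activity through CREB and related factors. The 11 early response genes beside them were above 0 in 11 of 11 cases in cortex, hippocampus and olfactory bulb (medians 1.47, 0.96 and 1.49). In the cerebellum 9 of the 10 tested were above 0 (median 1.13). Whether the hormone, neuronal activity or the clock had a part in these differences was not tested. With the block in the cortex, 9 of 11 passed. None of the 10 members passed in that fit.

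Mt2, a metallothionein that binds zinc, went the other way from Per1. It lay at 70.4, 82.3 and 77.9 CPM in knockout cerebellum against 95.6, 116 and 120 in wild type, and at 42.7, 30.8 and 42.2 against 59, 59.9 and 49.3 in the olfactory bulb. The groups did not overlap in these 2 regions (log2 -0.51, SE 0.12 and -0.54, SE 0.16; adjusted p = 0.949 and 0.992). With sample quality weights Mt2 passed in the cerebellum (adjusted p = 0.015). In the limma test of the mean over regions, Mt2, Dusp1 and Arl4d did not pass (adjusted p = 0.629, 0.846 and 0.855). With the block they did not either (0.394, 0.0535 and 0.629). The edgeR fits of 24 and of 21 libraries called Mt2 (adjusted p = 0.0121 and 0.0373), Per1 (5.23e-05 and 8.47e-05), Dusp1 (0.00881 and 0.0201) and Arl4d (0.0338 and 0.0332). They count the 4 regions of a replicate number as independent samples, and the fit of 21 was added after the values had been seen. Of all genes, 0.443% and 0.97% passed in them. Angptl4, a lipoprotein lipase inhibitor, was 2.18, 2.99 and 2.09 CPM in knockout hippocampus and 3.53, 4.6 and 3.74 in wild type (-0.69, SE 0.23, adjusted p = 0.953).

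Lists that stand beside single members were counted in the same way, and no gene of them passed the adjusted threshold. Beside Pdk4 and Plin4, the 8 tested lipid and fuel genes were below 0 in 7, 8 and 6 cases in cerebellum, cortex and olfactory bulb, and in 7 of 9 in the hippocampus (medians -0.15, -0.15, -0.12 and -0.20). Beside Cdkn1a, 3, 5, 4 and 4 of 8 p53 targets were above 0 in cerebellum, cortex, hippocampus and olfactory bulb (medians -0.04, 0.02, -0.03 and -0.04). Beside Errfi1, 3 of 6, 1 of 6, 1 of 6 and 3 of 7 genes of the EGF receptor axis were above 0 in the same order. Beside Ddit4, 6, 7, 5 and 3 of 9 genes of mTOR and cell stress were above 0 (medians 0.03, 0.14, 0.00 and -0.01).

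Much of the spread of the members within a group followed the replicate number. For each gene the deviations of the libraries from their group mean (log2 CPM, 3 libraries per region and genotype) were averaged across the 4 regions, separately by genotype and number. The share of the within-group sum of squares held by these averages was 90.6% for Ddit4, 77.8% for Tsc22d3 and 75.2% for Sgk1, against a median of 32% over 17600 genes. These 3 lay at percentiles 99.9, 98.6 and 97.9 of all genes. Sult1a1 (63%), Pdk4 (60.9%), Errfi1 (58.1%), Fkbp5 (58%) and Cdkn1a (57%) followed, with Zbtb16 at 36.8% and Plin4, with its zeros, at 18%.

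Ddit4, the mTOR inhibitor, shows the pattern most plainly. Wild type 2 was the lowest and wild type 3 the highest of the 3 wild-type libraries in 4 of 4 regions. Number 2 and number 3 held 22.5 and 38.5 CPM (cerebellum), 12.9 and 31.4 (cortex), 22.3 and 39.9 (hippocampus) and 24.5 and 38 (olfactory bulb). Wild type 1 lay between them each time, at 29.1, 23.4, 33 and 36 CPM. Among knockout libraries, number 2 was the lowest in 4 of 4 regions (27, 23.9, 32.2 and 23.2 CPM). The spread between numbers of 1 genotype was therefore larger than the knockout difference, whose largest estimate was 0.30 on the log2 scale.

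Tsc22d3 was highest in wild type 1 and lowest in wild type 2 in each region, with 115 and 81.5 CPM (cerebellum), 117 and 57.8 (cortex), 144 and 57.4 (hippocampus) and 56.5 and 37 (olfactory bulb). Sgk1 was highest in wild type 3 in 4 of 4 regions (102, 118, 132 and 52.8 CPM) and lowest in wild type 2 in 3 of 4 (64.4, 69.3 and 66.3 CPM, with 32.9 in the olfactory bulb). Wild type 2 was also the lowest in 4 of 4 regions for Cdkn1a and Errfi1. It was the highest in 4 of 4 for Fkbp5, Sult1a1 and Plin4, so the members did not deviate in 1 direction. Across genes, deviations of wild-type libraries with the same number in 2 regions correlated at -0.17 to 0.43 (median 0.13 of 18 pairs of libraries), and those with other numbers at -0.43 to 0.15 (median -0.05 of 36 pairs). Reads in no gene feature made up 56.2% of wild-type cortex 2, against 20.3% and 34.9% of cortex 1 and 3. The share of wild type 2 was also the highest of the 3 in cerebellum (60.2%) and olfactory bulb (62.9%), but not in the hippocampus (51.3%, against 37% and 52.6%). The part of this share in the pattern was not tested.

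**Figure D3:**
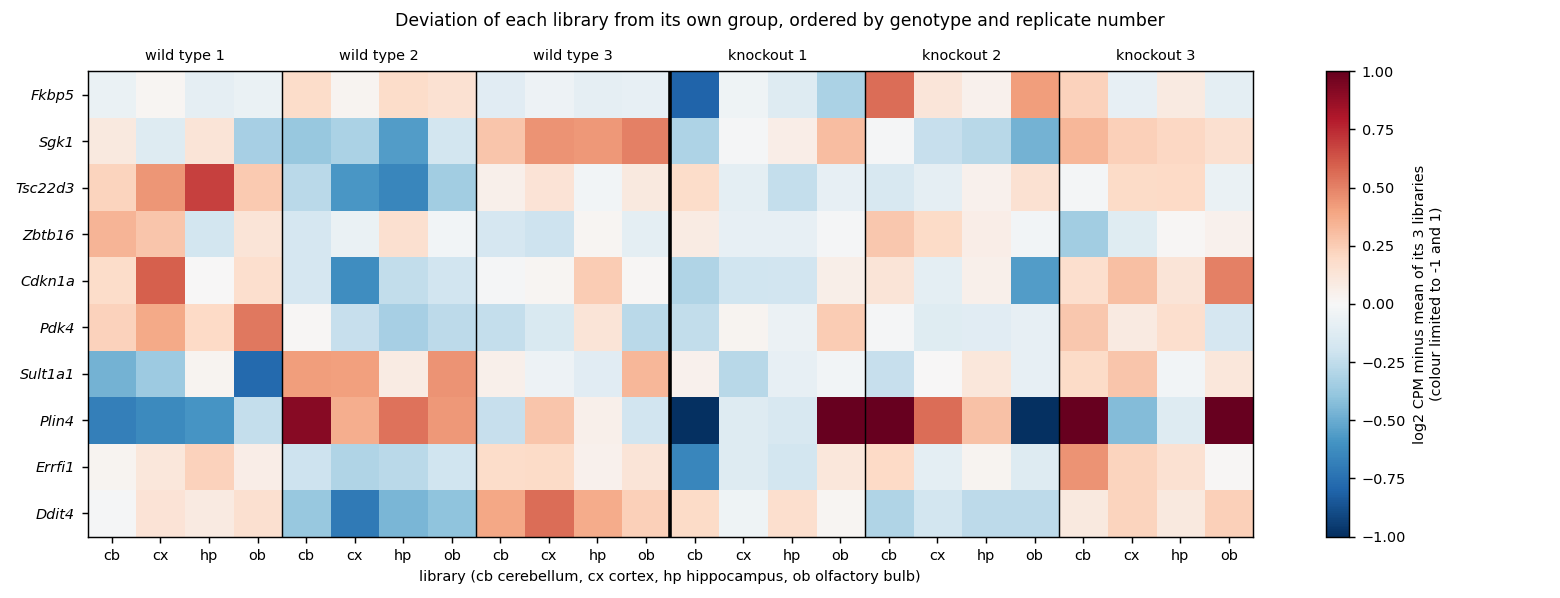
Deviation of each library from the mean of its 3 libraries on the log2 CPM scale (colour, limited to -1 and 1) for the 10 members (rows) in 24 libraries (columns), ordered by genotype, replicate number and region. In wild type 2 the row of Ddit4 is blue in all 4 regions and in wild type 3 it is red in all 4, while Plin4 is red in wild type 2 and blue in wild type 1.

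Within groups, some members varied together and others in the opposite direction; the pairs named here were picked for their values. Over the 21 deeper libraries, Pearson correlations of the deviations were 0.90 between Sgk1 and Ddit4, 0.87 between Tsc22d3 and Errfi1, 0.79 between Errfi1 and Ddit4 and 0.72 between Tsc22d3 and Cdkn1a. Fkbp5 and Plin4 correlated at 0.70 with each other and at -0.76 (Fkbp5 with Sgk1) and -0.72 (Plin4 with Tsc22d3) with the first set. Over all 24 libraries the same values were 0.73, 0.45, 0.44, 0.49, 0.49, -0.21 and -0.41 in that order. Several signs depended on the 3 shallow libraries. With and without them Plin4 correlated with Errfi1 at 0.50 and -0.66, with Cdkn1a at 0.35 and -0.51, with Sgk1 at 0.28 and -0.57 and with Pdk4 at 0.09 and -0.67. Fkbp5 correlated with Errfi1 at 0.34 and -0.59 and with Pdk4 at 0.03 and -0.39. Libraries of 1 replicate number may share an animal, so these points are not independent and the values are given with no test.

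By a likeness measure that keeps the genotype difference (log2 CPM minus the region mean, scaled, 24 libraries), the closest other member was Ddit4 for Sgk1 (r = 0.70), Errfi1 for Cdkn1a (0.66) and Cdkn1a for Pdk4 (0.63). The genes outside the list with the highest r to the mean of the 10 members were Dcaf12 (0.89), Zmat3 (0.85), Timm22 (0.85), Gramd3 (0.85) and Zbtb40 (0.84). Their r was 0.79 to 0.87 over the 21 deeper libraries. These genes were found by searching all genes for the highest value, and nothing is read from it about shared control.

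**Figure D4:**
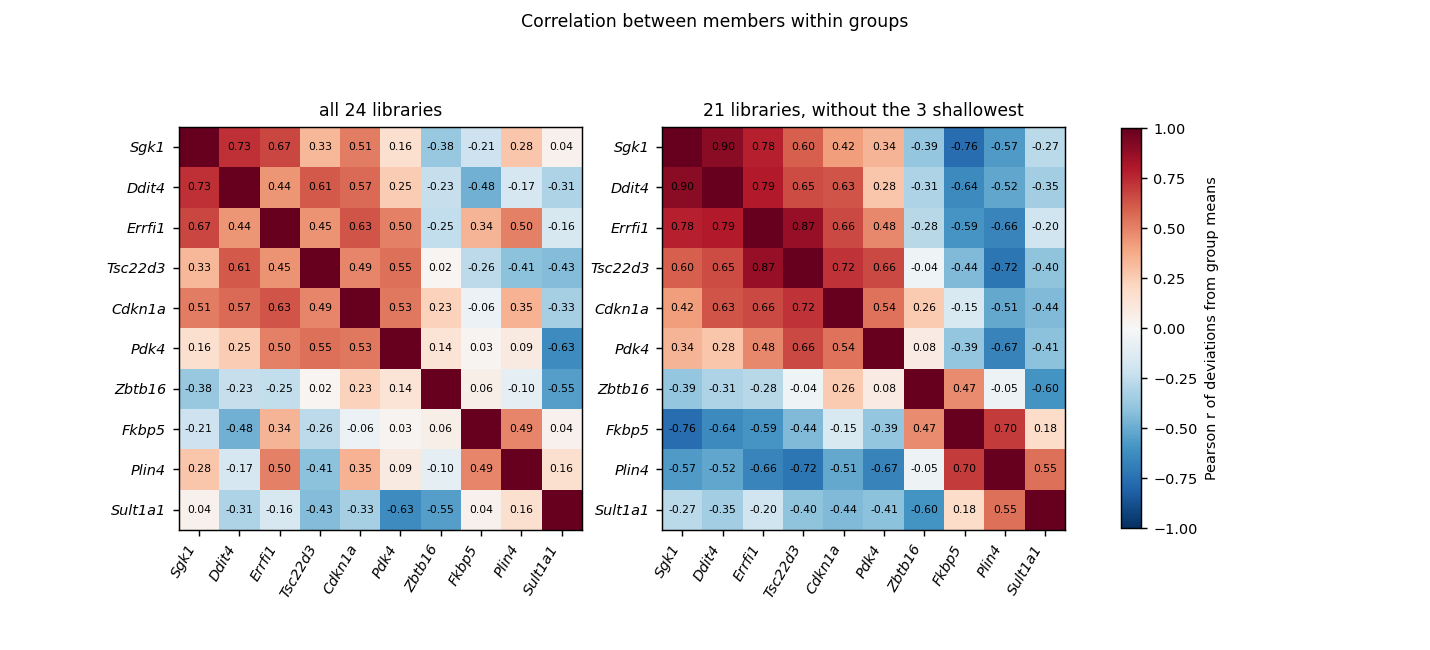
Pearson correlation of within-group deviations (colour and printed value, -1 to 1) between the 10 members, over all 24 libraries on the left and over the 21 libraries without the 3 shallowest on the right. On the right Sgk1, Ddit4, Errfi1, Tsc22d3, Cdkn1a and Pdk4 form a block of values above 0, and Fkbp5 and Plin4 lie below 0 with each of these 6, while on the left 6 of these 12 values are above 0.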

How the data were processed

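The authors' deposited files, 1 per library, hold raw whole-number read counts for 37621 gene entries. The submitters' processing notes name the mm9 build, HTSeq 0.6.1p1, STAR 2.5.1b and bcl2fastq 2.17.1.14. Settings and the use of strand in counting were not given in the sources used here, so reads of overlapping genes may be shared. A stranded kit followed TRIzol extraction and depletion of ribosomal RNA by RNase H, per the labels' protocols. The 5 summary entries of each file were left out of all totals; no-feature reads made up 20.3% to 62.9% of a library. Ensembl identifiers were paired with names through GENCODE annotation of GRCm38, a later build, which matched 32897 of 37620; no coordinates were taken from it. Exon lengths come from it too.

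Counts were fitted over all genes kept by filterByExpr (minimum count 10) with edgeR 4.0.16 in R 4.3.3: TMM scaling, robust quasi-likelihood F-tests, 6 libraries per region for knockout against wild type, 24 for the difference between regions and 12 for wild type across regions. The mean over regions was taken per genotype and replicate number from log2 CPM with a prior count of 2, and tested with limma 3.58.1. P-values are two-sided and adjusted by Benjamini-Hochberg over all genes tested, with a threshold of 0.05. Groups of 3 libraries limit precision, and p-values measure the spread between these libraries, which may be technical since the labels do not say that replicates are separate animals. The fits were run on simulated counts with independent libraries and the same dispersion for all genes. That setting lacks the replicate-number pattern of these data. Alternatives were RLE scaling, DESeq2 1.42.0, other filters, each library left out, the replicate number as a block, 1 fit of 24 libraries, the no-feature share as a covariate, sample quality weights and a prior count of 0.5. A zero is given with the level of 3 counts, which covers counting error only.

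The members and all gene lists were chosen with earlier results of these data known. Named genes are the 10 members, Nr3c1, Nr3c2 and Hsd11b1, the 2 other glucocorticoid targets with the smallest p in each region, and the 5 genes most like the members' mean. Other lists are given as counts, namely p53 targets, lipid and fuel genes, the EGF receptor axis, mTOR and stress genes, early response genes, clock genes and cell type markers. Clock genes were above 0 in 5, 7, 6 and 5 of 10 cases in cerebellum, cortex, hippocampus and olfactory bulb. At an unadjusted p under 0.05 (edgeR), 4, 1, 2 and 3 of them were higher and 4, 1, 2 and 2 lower. In either direction 1.89%, 5.64%, 4.01% and 2.43% of all genes were under that limit. No clock gene passed the adjusted threshold in these fits. The part of the clock in the differences of the members was not tested. Deviations of same-numbered knockout and wild-type libraries from their group means correlated across genes at 0.399, 0.532 and 0.104 in the cortex and at 0.189, 0.171 and 0.227 for the mean over regions, all above 0.1, so the numbers were taken to pair the libraries there. The choice of pairs came from the same counts that the block fits use. It is weakest for cortex knockout 3, with r of 0.288 to wild type 1 and 0.104 to wild type 3. No pairs were taken in the other regions. Cerebellar values of the same number were 0.057, 0.098 and 0.081, under that limit, though those of other numbers were 0.006 or lower. Values of the same number ran from -0.176 to 0.017 in the hippocampus and from -0.134 to 0.134 in the olfactory bulb.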

Additional observations from a re-analysis of the deposited data

How the results depend on the processing

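No call of a member in the knockout comparisons within regions, or in the test between regions, began under any alternative run, and no called value changed direction. For the mean over regions, the count of members past the threshold was 0 and became 2 (Plin4 and Pdk4) in the added edgeR fit of 21 libraries without the 3 shallowest, an alternative chosen after seeing the data; the cause was not tested. Of 713 single-member values of the knockout comparisons under the alternatives, 711 kept their side of the threshold. Without a call, 28 of 676 estimates changed sign. The replicate block changed no member's call in the knockout comparisons: 0 of 10 passed with it in each region and for the mean over regions. It gave Per1, not a member, an adjusted p of 0.0196 in the olfactory bulb, a region whose numbers were not taken as pairs. For wild type across regions, where same-numbered libraries did not all deviate together and the labels do not say that a number marks an animal, the block moved the members past the threshold from 8 to 10 and the pairs of regions from 30 of 60 to 39. Ddit4 (adjusted p = 0.00949) and Sult1a1 (0.0124) then passed over regions, and Ddit4 was lower in the cortex than in cerebellum (0.015), hippocampus (0.0288) and olfactory bulb (0.00364). The other alternatives gave 6 to 9 members, and 24 to 33 pairs; the lowest, 6 members, came without olfactory bulb 2 or 3 and 24 pairs without olfactory bulb 2. Of 1130 single-member values there, 1040 kept their call, 62 lost one and 28 gained one. Plin4 had 0 counts in 2 libraries, of 5175203 and 6500197 counts, which also had the fewest genes detected (14393 and 13741). The next shallowest library, olfactory bulb wild type 1 (7395560 counts), held 34 counts of Plin4. The part of depth in these zeros was not tested.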
